A study of Rattus norvegicus with 20 samples.

Results

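The insulin-like growth factor (IGF) system was followed through 10 genes: the ligands Igf1 and Igf2, the receptors Igf1r and Igf2r, the receptor substrate Irs1, and the binding proteins Igfbp2, Igfbp3, Igfbp4, Igfbp5 and Igfbp6. Every array probe whose gene name, or whose description, was one of these genes was taken, which gave 17 of 41012 probes and 10 of the 33089 genes tested. The measure was the RNA of sprouting over that of non-sprouting neurons of the same rat. Sprouting neurons were captured from 5 rats at day 7 and from 5 other rats at day 21, and non-sprouting neurons came from those same rats. All rats were 2 months old and had had a stroke, so every sample, the non-sprouting neurons included, is a post-stroke one. The tracer cholera toxin B (CTb) was injected into cortex beside the infarct as CTb-Alexa 488 and, 7 or 21 days later, as CTb-Alexa 647 into the same place. About 300 neurons of each cell type were cut out by laser 7 days after the second tracer, and their RNA went through 2 rounds of T7 amplification. The labels used here do not say which tracers marked a sprouting neuron, and a pool of cut-out neurons can carry RNA of cells that touch them. Fewer cells of a type and less RNA per cell cannot be told apart in such pools.

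IGF-I and IGF-II are small secreted proteins related to insulin. Both act through the receptor tyrosine kinase encoded by Igf1r, which signals through Irs1 to the PI3K and AKT route and, in parallel, through RAS and the MAP kinases. Igf2r encodes the mannose 6-phosphate receptor, which takes IGF-II into the cell for breakdown and carries no kinase. The binding proteins hold IGFs outside the cell and can block or prolong their action. In brain, IGF-I is known as a survival and growth factor for neurons, and IGF-II is known as a product of the meninges, choroid plexus and vessels.

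Each animal was measured on a pair of arrays with the dyes swapped, 20 arrays in all. Across arrays and dyes, 40.5 to 94.6% of spots lay well above background, and the number of animals, each with a pair of arrays, limits the precision. Day 21 replicate 4 stood apart: the ratios of its pair of arrays correlated at -0.36 over genes, against 0.33 to 0.73 in the other 9 animals, and its ratios spread least (SD over genes 0.065). Between animals of one day the ratios hardly correlated, with a median r of 0.014 at day 7 and 0.059 at day 21. All 11 pan-neuronal and all 11 glutamatergic markers on the array were well above background in both cell types and at both days, and so were all 15 astrocyte and all 17 oligodendrocyte markers.

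None of the 10 IGF genes differed between sprouting and non-sprouting neurons at day 7, at day 21 or over both days, at an adjusted p under 0.05 (limma, Benjamini-Hochberg over 33089 genes). The same call was made for 0.00302% of all genes at day 7, for 0% at day 21 and for 0% over both days. At an unadjusted p under 0.05, 0 of the 10 members passed at day 7, where 9.48% of all genes did, 0 at day 21, where 5.8% did, and 0 over both days, where 11% did. The members' median log2 ratio was 0.038 at day 7 and -0.022 at day 21, against -0.0054 and -0.0013 over all genes tested. The mean ratio was above 0 for 7 of the 10 members at day 7, where it was for 46.5% of all genes. At day 21 it was above 0 for 4 of the 10, where it was for 49.0% of all genes. No member had the same sign in all 5 animals at day 7, where 8.65% of all genes did. At day 21 Igfbp2 alone did, 1 of 10 members, where 8.29% of all genes did, and over both days 0 members did, where 0.622% of all genes did.

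**Figure D1:**
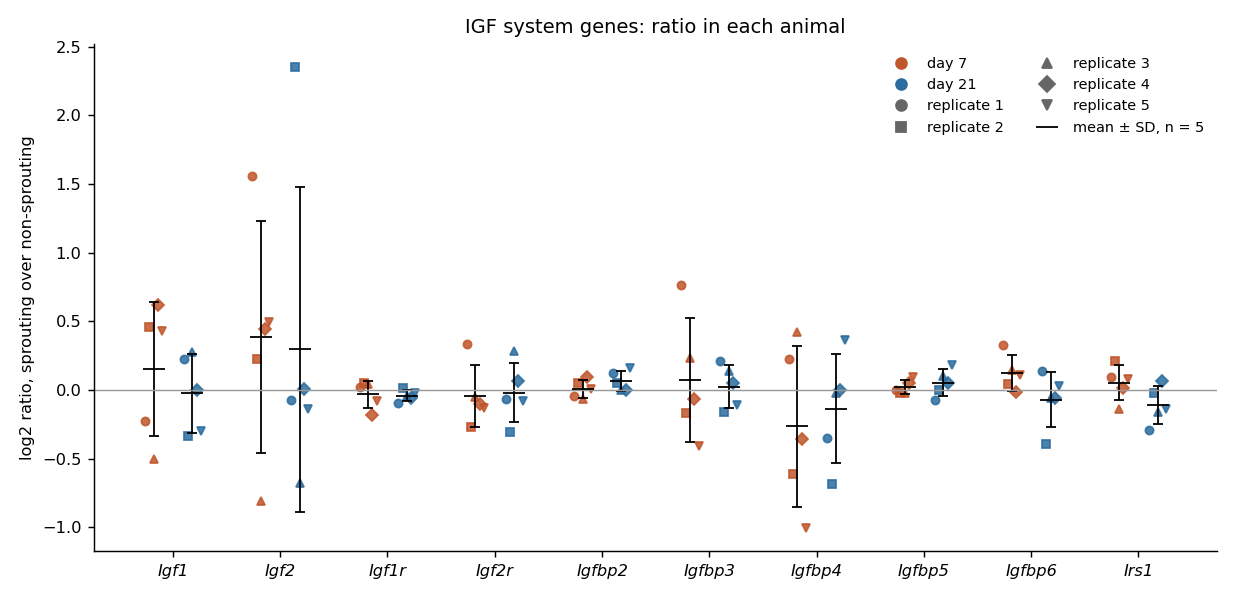
The log2 ratio of sprouting over non-sprouting neurons (y axis) is plotted for each IGF gene (x axis) and animal, day 7 left of day 21, with the mean and SD of 5 animals. Igf2 reached 2.35 in day 21 replicate 2 and 1.56 in day 7 replicate 1, while all 10 animals of Igf1r lay between -0.18 and 0.05.

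Igf2 had the widest ratios of the members. Its log2 ratio at day 7 was 1.56, 0.23, -0.81, 0.44 and 0.50 in replicates 1 to 5, so sprouting neurons had more Igf2 in 4 animals and less in replicate 3. At day 21 the values were -0.07, 2.35, -0.67, 0.0056 and -0.14, and replicate 2 stood alone, with 5.1-fold more Igf2 in its sprouting neurons. The high value lay in the sprouting pool: in that animal the log2 level was 10.43 in sprouting and 8.08 in non-sprouting neurons, while the sprouting level of the other 4 animals lay between 7.67 and 7.89. In day 7 replicate 1 the levels were 9.70 in sprouting and 8.14 in non-sprouting neurons. Both arrays of an animal gave nearly the same Igf2 ratio, 2.38 with the sprouting RNA in Cy5 and 2.32 with it in Cy3 in day 21 replicate 2, and 1.58 and 1.54 in day 7 replicate 1. These values come from 1 probe (A_44_P1037953), which was well above background in all 10 channels of each cell type and day.

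The mean ratio of Igf2 was 0.38 ± 0.84 at day 7 and 0.30 ± 1.18 at day 21 (SD, n = 5 each), with adjusted p of 0.78 and 0.96 by limma. The 95% interval of the day 7 mean ran from -0.52 to 1.29, and that of the day 21 mean from -0.61 to 1.20. Without day 21 replicate 2 the day 21 mean of Igf2 was -0.22, and without day 7 replicate 1 the day 7 mean was 0.090. The SD of the Igf2 ratio between animals of one day, pooled over both days, was 1.03. It lay at percentile 99.98 of all genes, whose median SD, pooled in the same way, was 0.12. The distance of each array of an animal from that animal's mean was 0.072 (root mean square over animals), far smaller than the SD between animals.

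Igf1 also split the animals. At day 7 its log2 ratio was -0.23, 0.46, -0.50, 0.62 and 0.43 in replicates 1 to 5, higher in sprouting neurons of 3 animals and lower in those of 2. At day 21 it was 0.23, -0.33, 0.28, 0.0013 and -0.30. The means were 0.15 ± 0.49 and -0.024 ± 0.29 (SD, n = 5 each), with adjusted p of 0.77 and 0.99 by limma. The ratio on both arrays of an animal had one sign in 9 of 10 animals, the exception being day 21 replicate 4, and the distance of an array from its animal's mean was 0.047 (root mean square) against an SD between animals of 0.40. That SD lay at percentile 96.7 of all genes.

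**Figure D2:**
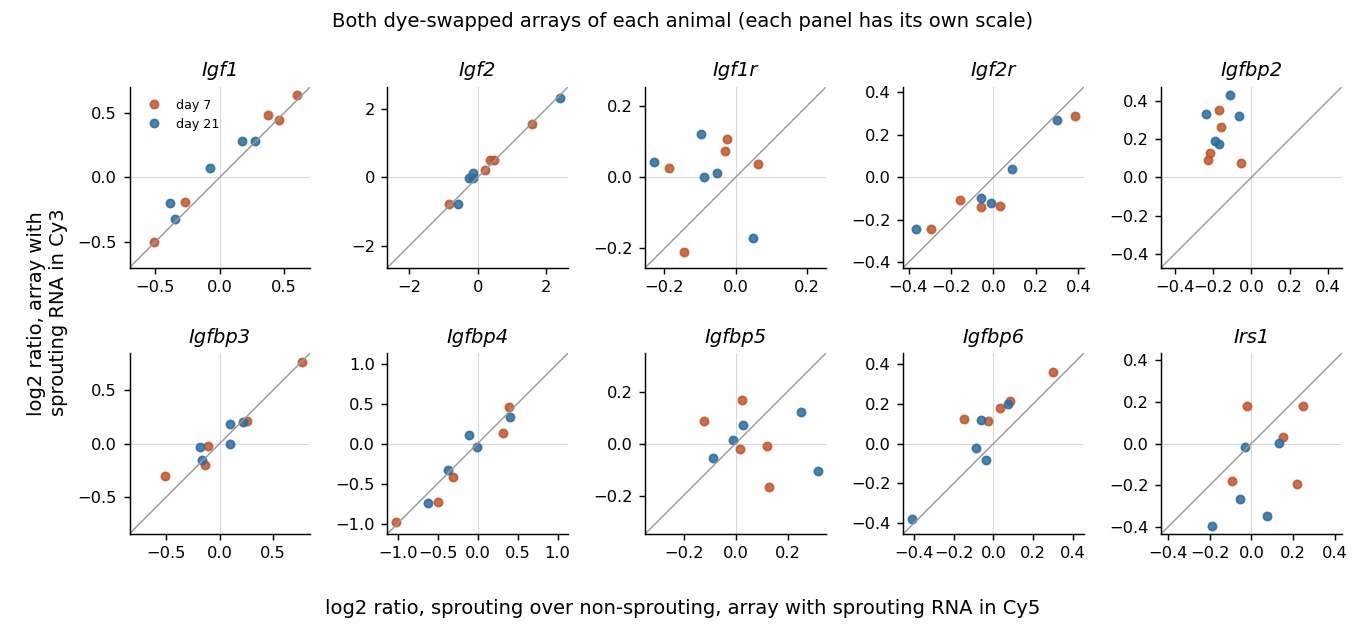
Each point is an animal, with its log2 ratio (sprouting over non-sprouting) on the array with sprouting RNA in Cy5 on the x axis and on the swapped array on the y axis, and the line marks equal values. Igf1, Igf2, Igf2r, Igfbp3 and Igfbp4 lie along the line, and all 10 animals of Igfbp2 lie in the upper left, where the arrays differ in sign.

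The array carries 5 probes for Igf1, and they did not all follow the animals in one way. The brightest (A_44_P366723, used for the gene) and a probe for an exon 6 record (A_44_P1044658) had one sign in 8 of 9 animals. The exon 6 probe read -0.48, 0.29, -0.090 and 0.64 in replicates 1 to 4 of day 7 and gave no value in replicate 5. A probe for the 5′ end of a class C transcript (A_44_P126021), a form of Igf1 that differs in its leader exon, had the sign of the brightest probe in 9 of 10 animals but a narrower range, from -0.092 to 0.20. The other two probes (A_44_P421499 and A_44_P421502), made for the same transcript record as the brightest one, had its sign in 5 and 6 of 10 animals and stayed between -0.099 and 0.19. They were less bright, at percentiles 45.2 and 41.7 of probe brightness, against 85.5 for the brightest. Both were still well above background in 9 or 10 of 10 channels of each cell type and day.

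**Figure D3:**
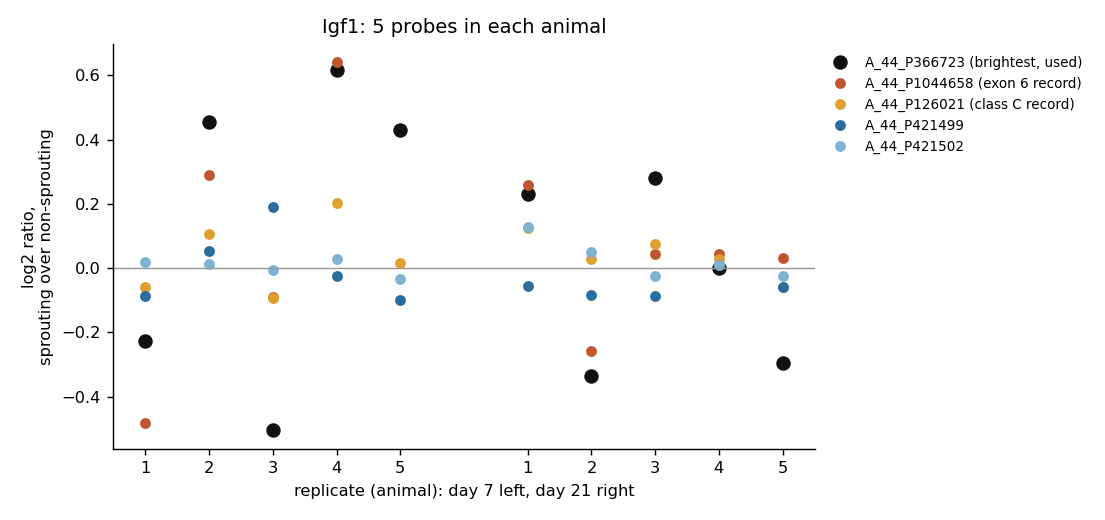
The log2 ratio of sprouting over non-sprouting neurons (y axis) is shown for each of the 5 Igf1 probes in each animal (x axis, day 7 left and day 21 right). The brightest probe runs from -0.50 to 0.62, and A_44_P421499 and A_44_P421502 stay within -0.099 to 0.19.

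Of the receptors, Igf1r varied least between animals. Its log2 ratio was 0.022, 0.050, 0.041, -0.18 and -0.080 in the animals of day 7 and -0.094, 0.012, -0.044, -0.061 and -0.020 in those of day 21. The means were -0.029 ± 0.098 and -0.041 ± 0.040 (SD, n = 5 each), with adjusted p of 0.82 and 0.91 by limma. The 95% interval ran from -0.11 to 0.052 at day 7 and from -0.12 to 0.040 at day 21. The SD between animals, 0.075, was no larger than the distance of an array from its animal's mean, 0.081 (root mean square), and those arrays had one sign in 3 of 10 animals. Igf1r was measured by 1 probe, at percentile 35.5 of brightness.

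Igf2r, the clearing receptor, was bright (percentile 92.1) and its arrays had one sign in 9 of 10 animals. Its ratio was 0.34, -0.27, -0.051, -0.10 and -0.13 at day 7 and -0.066, -0.30, 0.29, 0.063 and -0.077 at day 21. Sprouting neurons thus had less Igf2r in 7 of 10 animals, by small amounts, and the mean over both days was -0.032 ± 0.21 (SD, n = 10; adjusted p 0.88 by limma). In day 21 replicate 2, the animal with the high Igf2, Igf2r was at its lowest, and in day 7 replicate 1, also high in Igf2, it was at its highest.

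Irs1, the docking protein that couples the receptor to PI3K, read 0.094, 0.21, -0.14, 0.012 and 0.080 at day 7, above 0 in 4 animals. At day 21 it read -0.29, -0.025, -0.16, 0.066 and -0.14, below 0 in 4 animals. The means were 0.053 ± 0.13 and -0.11 ± 0.14 (SD, n = 5 each; adjusted p 0.78 and 0.84 by limma). The probe was dim, at percentile 13.1 of brightness, and was well above background in 7 of 10 sprouting channels at day 7 and 2 of 10 at day 21, against 10 and 6 of 10 non-sprouting channels.

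Igfbp4, a binding protein that mainly holds IGFs away from their receptor, had the lowest mean ratio of the members at both days. Its log2 ratio at day 7 was 0.22, -0.61, 0.42, -0.36 and -1.003 in replicates 1 to 5. In replicate 5 non-sprouting neurons therefore had 2.0-fold more Igfbp4 than sprouting ones, while replicates 1 and 3 had the opposite sign. At day 21 it was -0.35, -0.68, -0.022, 0.00052 and 0.37. The means were -0.27 ± 0.59 and -0.14 ± 0.40 (SD, n = 5 each), with adjusted p of 0.68 and 0.96 by limma. An exact sign-flip permutation test over the 10 animals gave p = 0.22 for Igfbp4 (two-sided, 0.00195 being the smallest it can give). The SD between animals, 0.50, lay at percentile 98.7 of all genes, with the distance of an array from its animal's mean at 0.068 (root mean square). A second Igfbp4 probe (A_44_P515317) had the same sign in 6 of 10 animals, between -0.0058 and 0.15, and was well above background in only 4 or 5 of 10 channels of each cell type and day. Its mean had the other direction, 0.099 ± 0.062 at day 7 and 0.027 ± 0.019 at day 21 (SD, n = 5 each; adjusted p 0.40 and 0.93 by limma), above 0 in 4 of 5 animals at both days. Over both days this probe read 0.063 (adjusted p 0.40, unadjusted p 0.010 by limma), where 11% of all genes had an unadjusted p under 0.05. It was above 0 in 8 of 10 animals, with an exact sign-flip permutation p of 0.0078. Its pair of arrays, however, had one sign only in day 7 replicates 2 and 3. In the other animals the arrays differed in sign, as in day 7 replicate 4, with -0.042 (sprouting RNA in Cy5) and 0.32 (in Cy3). The low mean of Igfbp4 thus rests on the brighter probe alone.

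Igfbp3, the main carrier of circulating IGF, read 0.76, -0.17, 0.23, -0.066 and -0.41 at day 7. Replicate 1, which also had high Igf2, was the highest and replicate 5 the lowest. At day 21 the ratio was narrower, 0.21, -0.16, 0.14, 0.049 and -0.11. The means were 0.071 ± 0.45 and 0.026 ± 0.16 (SD, n = 5 each; adjusted p 0.89 and 0.99 by limma). Without day 7 replicate 1 the day 7 mean of Igfbp3 was -0.10. The second Igfbp3 probe (A_44_P180127) had the sign of the first in 8 of 10 animals and read 0.45, -0.017, 0.13, -0.085 and -0.26 at day 7. At day 21 its mean had the other direction, -0.055 ± 0.15 (SD, n = 5; adjusted p 0.96 by limma). It was below 0 in 4 of 5 animals there, while the first probe was above 0 in 3 of 5.

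Igfbp6, which prefers IGF-II over IGF-I, had a ratio above 0 in 4 of 5 animals at day 7, with 0.33, 0.044, 0.15, -0.014 and 0.11. At day 21 it was 0.14, -0.40, -0.057, -0.058 and 0.027. The means were 0.12 ± 0.13 and -0.069 ± 0.20 (SD, n = 5 each; adjusted p 0.59 and 0.92 by limma). The lowest value, -0.40, was that of day 21 replicate 2, the animal with the highest Igf2.

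Igfbp2 and Igfbp5, both made by neural cells in the developing brain, were near the floor of the array. Igfbp2 lay between -0.067 and 0.092 at day 7. At day 21 it lay between 0.00095 and 0.16, above 0 in 5 of 5 animals, with a mean of 0.067 ± 0.073 (SD, n = 5; adjusted p 0.84 by limma; exact sign-flip permutation p = 0.0625, the smallest that 5 animals can give). In all 10 animals, however, its pair of arrays had opposite signs, from -0.24 to -0.054 with the sprouting RNA in Cy5 and from 0.074 to 0.43 with it in Cy3. The probe was well above background in 7 of 10 sprouting channels at day 7 and 2 of 10 at day 21, against 5 and 3 of 10 non-sprouting channels. Igfbp5 lay between -0.019 and 0.096 at day 7 and between -0.071 and 0.19 at day 21, from a probe at percentile 7.12 of brightness. The other Igfbp5 probe (A_44_P285534) was brighter on average, at percentile 16.4, but did not pass the filter on dim probes, the only one of the 17 member probes that failed it. Its mean ratio was -0.019 at day 7, against 0.022 for the probe used, and 0.038 at day 21, against 0.054.

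The question of whether the sprouting ratio itself changed with time was tested as the ratio at day 21 minus that at day 7. No member passed an adjusted p of 0.05 (limma; 0% of all genes passed) or an unadjusted p of 0.05 (4.05% of all genes passed). The largest difference was that of Igfbp6, whose mean ratio was -0.069 at day 21 and 0.12 at day 7 (difference -0.19, 95% interval -0.41 to 0.027). Igf1 followed with -0.024 at day 21 and 0.15 at day 7 (difference -0.18, 95% interval -0.68 to 0.33), and Irs1 with -0.11 at day 21 and 0.053 at day 7 (difference -0.16, 95% interval -0.34 to 0.015). Their adjusted p was 0.94 for Igfbp6 and Irs1 and 0.96 for Igf1 by limma. For all 10 members the animals of day 21 overlapped those of day 7, where 0.757% of genes measured in every animal did not overlap.

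Levels within a cell type were then compared between the cohorts, day 21 over day 7. No member passed an adjusted p of 0.05 in sprouting or in non-sprouting neurons, and no gene of the array did (limma; 0% of all genes in both). At an unadjusted p under 0.05, 2 of 10 members passed in sprouting neurons (8.98% of all genes) and 1 of 10 in non-sprouting neurons (9.18%). In sprouting neurons 1 member was higher at day 21 (2.35% of all genes) and 1 lower (6.63%), and in non-sprouting neurons 0 were higher (2.33%) and 1 lower (6.85%). The animals of day 21 overlapped those of day 7 for all 10 members in both cell types, where 1.57% of genes did not overlap in sprouting and 1.56% in non-sprouting neurons. Without scaling between arrays 0 members passed in either cell type, with scan day as a block 1 (Igfbp4) passed in sprouting and 0 in non-sprouting neurons, and with the replicate number as a block 0 passed in non-sprouting neurons. The median change of the members was -0.082 in sprouting and -0.054 in non-sprouting neurons, against -0.053 and -0.051 over all genes.

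Igfbp6 had an unadjusted p under 0.05 in both cell types, with the lower level at day 21. In sprouting neurons its log2 level was 8.34, 7.77, 8.31, 7.95 and 7.74 at day 21 and 9.20, 8.92, 8.14, 8.39 and 8.52 at day 7. The difference was -0.61 ± 0.21 (SE; p = 0.015, adjusted p 0.50 by limma), and the cohorts overlapped only in that day 7 replicate 3 lay among the day 21 animals. In non-sprouting neurons the levels were 8.20, 8.17, 8.37, 8.01 and 7.71 at day 21 and 8.87, 8.88, 7.99, 8.41 and 8.42 at day 7, a difference of -0.42 ± 0.19 (SE; adjusted p 0.54 by limma). Day 7 replicates 1 and 2, the highest Igfbp6 levels, were each scanned on a day of their own. With scan day as a block the differences were -0.35 in sprouting and -0.20 in non-sprouting neurons, with unadjusted p of 0.13 and 0.29 (adjusted p 0.999 and 0.9995 by limma), so Igfbp6 passed in neither. That fit placed day 7 replicate 3 in scan day 3, as the only day 7 animal there. Its arrays were scanned on scan days 3 and 4, and its Igfbp6 levels were the lowest of day 7. The block differences therefore lean on this animal. When each animal was left out in turn, Igfbp6 kept an unadjusted p under 0.05 in non-sprouting neurons only without day 21 replicate 3 or without day 7 replicate 3, and in sprouting neurons it kept it in all 10 fits. Within scan day 4 (2 animals of day 21, 1 of day 7) they were -0.48 and -0.15, and within scan day 5 (1 animal each) -0.66 and -0.70.

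Igfbp4 had the opposite sign. Its log2 level in sprouting neurons was 11.23, 11.04, 11.31, 10.31 and 10.46 at day 21 and 10.52, 10.34, 10.11, 10.32 and 10.05 at day 7. The difference was 0.61 ± 0.21 (SE; p = 0.013, adjusted p 0.48 by limma), and day 21 replicates 4 and 5 lay within the range of day 7. In non-sprouting neurons the difference was 0.48 ± 0.37 (SE; adjusted p 0.63 by limma), with levels of 11.58, 11.72, 11.33, 10.31 and 10.10 at day 21 and 10.29, 10.95, 9.69, 10.68 and 11.05 at day 7. Within scan day 4 the Igfbp4 differences were 1.13 in sprouting and 0.48 in non-sprouting neurons, and within scan day 5 they were 0.15 and -0.58. Without scaling between arrays the Igfbp4 difference in sprouting neurons was 0.18.

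**Figure D4:**
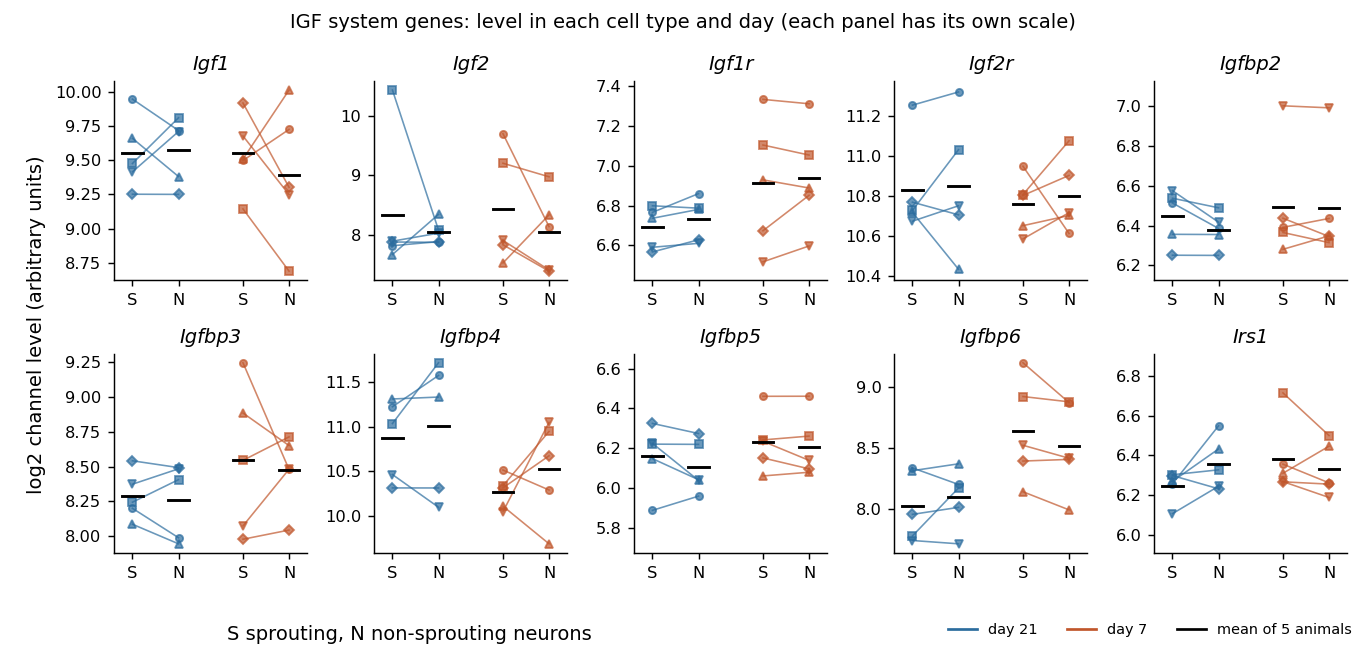
The log2 channel level (y axis, arbitrary units, with its own scale for each gene) of sprouting (S) and non-sprouting (N) neurons (x axis, day 21 left and day 7 right) is shown for each animal, with a line joining both cell types of an animal and a bar at the mean of 5. Igfbp6 means stand at 8.02 in S and 8.09 in N at day 21 and at 8.64 in S and 8.51 in N at day 7, and one sprouting pool of Igf2 stands at 10.43.

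Over the 4 combinations of cell type and day, the means of a member stayed within its own spread for most members. For Igf1 they ran from 9.40 in non-sprouting neurons at day 7 to 9.57 in non-sprouting neurons at day 21, a range of 0.18 where the SDs were 0.24 to 0.51. These are levels of the brightest Igf1 probe, and every other Igf1 probe was lower at day 21. In non-sprouting neurons those differences were -0.38 (A_44_P1044658, n = 9), -0.28 (A_44_P126021), -0.25 (A_44_P421499) and -0.21 (A_44_P421502). In sprouting neurons they were -0.45, -0.27, -0.31 and -0.18 in that order, against 0.00060 for the brightest. No Igf1 probe passed an adjusted p of 0.05 (limma). For Igf2r the range was 0.090 with SDs of 0.14 to 0.34, and for Igf1r 0.25 with SDs of 0.11 to 0.33. Igf2 was highest in sprouting neurons at both days, 8.43 ± 0.96 at day 7 and 8.34 ± 1.17 at day 21, against 8.05 ± 0.67 and 8.04 ± 0.19 in non-sprouting neurons (SD, n = 5 each). From high to low, neighbouring means lay closer together than the larger of their SDs in all members except Igfbp6, where non-sprouting neurons of day 7 and of day 21 were 0.42 apart with a larger SD of 0.37. This describes the spread of single animals and tests no difference of means. Sprouting and non-sprouting levels of the same day come from the same animals, and this comparison leaves their pairing out. Igfbp4, with a range of 0.74, and Igfbp6, with 0.61, had the widest ranges.

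Markers of other cell types varied from animal to animal as well, and their values stand here beside those of the members. At day 7 the median ratio of 17 oligodendrocyte markers was -0.34, 0.20, -0.18, 0.75 and 0.92 in replicates 1 to 5, and that of 18 microglia and macrophage markers was -0.17, 0.47, -0.25, 0.094 and 0.041. That of 15 astrocyte markers was -0.083, 0.0074, -0.084, 0.024 and 0.38. All of these medians had the sign of Igf1 in 5 of 5 animals, and the sign opposite to that of Igfbp3 and Igfbp4 in 5 of 5. These tallies repeat 1 pattern of signs over 5 animals and are not separate observations. The medians and Igf1 were below 0 in replicates 1 and 3 and above 0 in the others, and Igfbp3 and Igfbp4 had the reverse. The share of all genes with that pattern is not given here. At day 7 the GABAergic interneuron, endothelial and mural, and meningeal fibroblast medians came near, each with the sign of Igf1 in 4 of 5. Each had the sign of Igfbp3 and of Igfbp4 in 1 of 5. For the pan-neuronal and glutamatergic medians these tallies were 2 of 5 for Igf1 and 3 of 5 for Igfbp3 and for Igfbp4. At day 21 the oligodendrocyte median was 0.46, -0.30, -0.39, 0.013 and -0.12, with the sign of Igf1 in 4 of 5 animals, and the microglia and macrophage median -0.035, -0.15, -0.14, 0.0037 and 0.017, with that of Igf1 in 2 of 5. The astrocyte median was -0.055, -0.020, -0.14, -0.0058 and -0.16 at day 21, with the sign of Igf1 in 2 of 5. The tallies of the binding proteins were not those of day 7: at day 21 Igfbp4 had the sign of the microglia and macrophage median in 5 of 5 animals and of the oligodendrocyte and astrocyte medians in 3 of 5. The day 21 tallies include replicate 4, whose pair of arrays correlated at -0.36, and its signs carry little weight. There the Igfbp4 ratio was 0.00052 (arrays -0.11 and 0.11) and the Igf1 ratio 0.0013 (arrays -0.072 and 0.074). Igfbp3 had the sign of the oligodendrocyte median in 4 of 5 animals at day 21. It had that of the microglia and macrophage median, and of the astrocyte median, in 2 of 5. The summed oligodendrocyte level (log2) ranged from 15.3 to 16.5 in sprouting and 15.5 to 16.3 in non-sprouting neurons at day 7, and from 14.1 to 15.9 and 14.4 to 15.6 at day 21. That of the microglia and macrophage markers ranged from 14.2 to 15.2 and 14.4 to 14.8 at day 7, and from 14.4 to 14.7 and 14.5 to 14.9 at day 21. That of the astrocyte markers ranged from 16.1 to 16.3 and 16.1 to 16.4 at day 7, and from 15.8 to 16.1 and 15.9 to 16.3 at day 21. Their part in the Igf1, Igfbp3 and Igfbp4 ratios was not tested.

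The Igf2 values stand beside markers of the meninges and vessels. The median ratio of 10 meningeal fibroblast markers was 0.10, 0.44, -0.15, 0.25 and 0.17 at day 7, with the sign of Igf2 in 5 of 5 animals, and 0.13, 0.033, 0.011, -0.049 and -0.052 at day 21, with it in 2 of 5. In both animals with the highest Igf2 this median was small, 0.10 beside an Igf2 ratio of 1.56 and 0.033 beside 2.35. The endothelial and mural median in those animals was -0.0071 and -0.089. Of the 12 meningeal markers 10 were on the array, and 8 to 10 of them were well above background in each cell type and day. Their summed level ranged from 11.96 to 13.15 in sprouting and 11.99 to 13.16 in non-sprouting neurons at day 7, and from 12.06 to 13.18 and 12.12 to 12.97 at day 21. Their part in the Igf2 ratio was not tested.

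**Figure D5:**
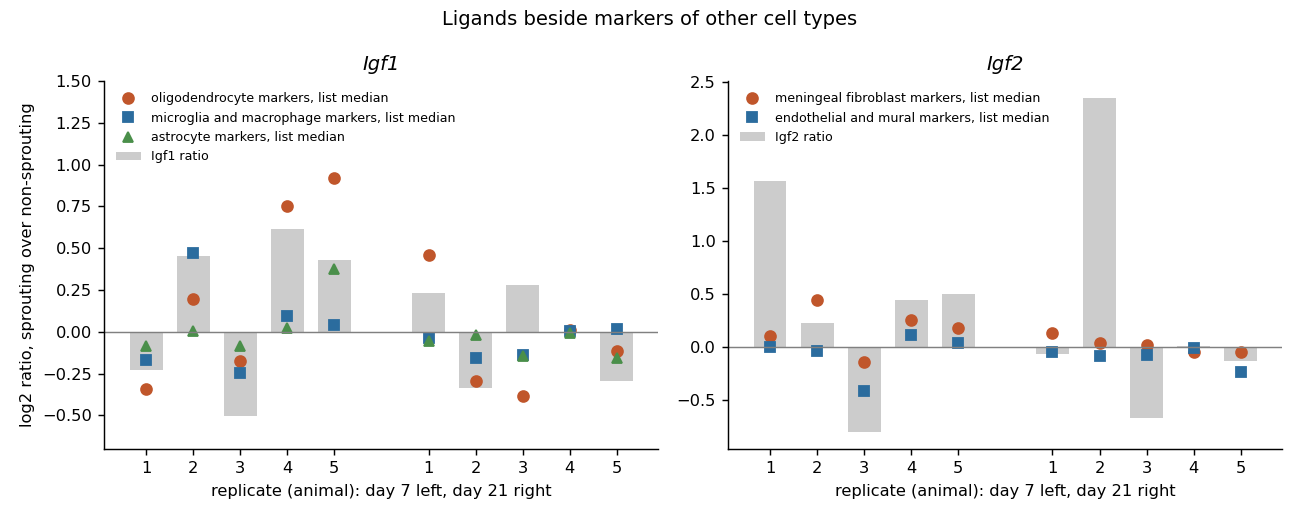
Bars give the log2 ratio of sprouting over non-sprouting neurons of Igf1 (left) and Igf2 (right) in each animal (x axis, day 7 left and day 21 right), and points give the median ratio of marker lists of other cell types. In the animals where Igf2 read 1.56 and 2.35, the meningeal fibroblast median was 0.10 and 0.033.

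The remaining genes of the pathway were counted from lists of close relatives, the PI3K, AKT and mTOR route, and the RAS and MAP kinase route. None of their members passed an adjusted p of 0.05 in any of the comparisons (limma). Of 28 PI3K, AKT and mTOR genes, 6 were higher and 1 lower in sprouting neurons at day 7 at an unadjusted p under 0.05, where 4.51% and 4.97% of all genes were. Pik3r1, the regulatory subunit of PI3K, had the smallest p (0.41 ± 0.16, SD, n = 5, above 0 in 5 of 5 animals; adjusted p 0.22 by limma). Gsk3a, a kinase held off by AKT, was at 0.15 ± 0.10 and Pik3cd, a catalytic subunit, at 0.13 ± 0.076, each above 0 in 5 of 5 animals (SD, n = 5 each; adjusted p 0.43 for Gsk3a and 0.46 for Pik3cd by limma). At day 21 Pik3cd read -0.13 ± 0.096, below 0 in 5 of 5 animals, and Gsk3a 0.10 ± 0.075, above 0 in 5 of 5 (SD, n = 5 each; adjusted p 0.84 for both by limma). At day 21 the list had 1 gene higher (3.43% of all genes) and 2 lower (2.37%), and over both days 4 higher (5.61%) and 0 lower (5.39%). Between the days, 1 gene had a higher ratio at day 21 (2.33% of all genes) and 4 a lower one (1.72%). The list's median was 0.036 at day 7 and 0.00014 at day 21.

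Of 17 relatives of the IGF system, 0 were higher and 2 lower in sprouting neurons at day 7 at an unadjusted p under 0.05, where 4.51% of all genes were higher and 4.97% lower. These were Igfbp1, a binding protein known from liver (-0.16 ± 0.081, below 0 in 5 of 5 animals; adjusted p 0.43 by limma), and Stc1, which codes for a stanniocalcin (-0.26 ± 0.28, below 0 in 4 of 5; adjusted p 0.48 by limma). At day 21, 1 of the 17 was higher and 2 were lower at that threshold, where 3.43% of all genes were higher and 2.37% lower. Htra1, a secreted protease that cuts IGF binding proteins, read -0.22 ± 0.27, below 0 in 5 of 5 animals, and Sh2b2, an adaptor of receptor tyrosine kinases, -0.089 ± 0.098, below 0 in 3 of 5. Igf2bp2, which binds Igf2 mRNA, read 0.067 ± 0.047, above 0 in 5 of 5 animals (SD, n = 5 each; adjusted p 0.84 for Htra1, Sh2b2 and Igf2bp2 by limma). The Htra1 level in sprouting neurons was lower at day 21 than at day 7 by a log2 difference of -0.52 (SE 0.10, adjusted p 0.31 by limma). Of 21 RAS and MAP kinase genes, 1 was higher and 0 lower at day 7 at an unadjusted p under 0.05, where 4.51% of all genes were higher and 4.97% lower. It was Ptpn11, the phosphatase SHP2, at 0.72 ± 0.96, above 0 in 4 of 5 animals (adjusted p 0.53 by limma). The medians of the relatives and of this list at day 7 were -0.0056 and 0.036.

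The genes whose ratios most resembled those of a member were ranked by Pearson r over the same 10 animals among 13911 named genes. For Igf1 they included Erap1 (r = 0.95, Spearman rho 1) and Hsd17b11 (0.93, 0.89). For Igf1r they were Rcc2 (0.95, 0.93), Ssbp2 (0.94, 0.88) and Wdr18 (0.93, 0.96). For Igf2 they were Resf1 (0.92, 0.87), Mtpap (0.92, 0.64) and Cacul1 (0.90, 0.66), and without the pair of animals with the most extreme Igf2 these r values were 0.71, 0.64 and 0.58. Tent2, Rag1 and Bdh1 were nearest to Igfbp2 (0.93, 0.93 and 0.92), and Hpcal1, 1700013D24Rik and Adcy5 to Igfbp5 (0.93, 0.89 and 0.88). For Igf2r they were Plekhj1 (0.93), Hdac5 (0.92) and Rpl26-ps3 (0.91), for Igfbp3 Klhdc10 (0.94), Tox4 (0.89) and Rims2 (0.88), and for Igfbp4 Sfta2 (0.95), Kcnv1 (0.94) and Psmd5 (0.93). For Igfbp6 they were Slc25a15 (0.93), Mavs (0.91) and Mapk9 (0.91), and for Irs1 Rbm43 (0.93), Ucn (0.89) and Iqcb1 (0.89). Without the pair of animals with the most extreme Igfbp3, its r values were 0.66, 0.48 and 0.72. For Igfbp6, treated in the same way, they were 0.71, 0.72 and 0.56. Among genes named for the other members except Igf2, the lowest was then 0.70 (Ucn, for Irs1). For Igf1r, Igfbp2 and Igfbp5 the SD between animals was below the distance of an array from its animal's mean. All genes named here share the animals and their arrays. They are the top of a long list, so the values describe these 10 animals only.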

How the data were processed

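The authors deposited 2-colour scanner files and a table of log2 ratios, per the file headers. The scanner files hold intensity per spot from Agilent Feature Extraction 9.1.3.1, read here as the scanner wrote it, and the deposited log2 ratio table was used as an alternative, each of its 20 ratio columns correlating best with its own array. Here limma 3.58.1 in R 4.3.3 corrected the background (normexp, offset 50), normalized within arrays (loess, control spots at weight 0) and left out outlier spots. Swapped arrays had their sign flipped, so that each ratio reads sprouting over non-sprouting, and both dye-swapped arrays of an animal were averaged. Dim probes were left out unless, in some cell type and day, a share of 0.5 of the arrays or more called them well above background, and 3 animals per day had to give a value. The brightest probe that passed these filters stood for a gene. Means per day were tested with lmFit and eBayes, two-sided, with Benjamini-Hochberg adjustment over 33089 genes. Levels were scaled between arrays (Aquantile). Replicate numbers name separate cohorts of animals and pair none. The members and lists were chosen with earlier results of these data known. All 10 members were named, and from each pathway list at most the 4 genes with the smallest p per comparison. Some genes that this rule or the ranking by likeness names are not reported here. The tests were checked on simulated data. Alternatives covered background, normalization, filters, probes, moderation, weights, scan day, single animals and the threshold. Probe sequences and genome positions were not used here. Figures used matplotlib 3.10.9 in Python 3.11.15.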

Additional observations from a re-analysis of the deposited data

Results flagged for a closer look

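In 60 groups of 5 animals (10 genes, 2 days, ratios and levels of both cell types), 7 held an animal whose distance to its nearest neighbour took up over 0.71 of the group's range. Chance alone gives this in about 5% of independent groups. These groups are not independent, since the ratio and both levels of a gene come from the same animals and arrays. Igf2 of day 21 replicate 2 and Igfbp2 of day 7 replicate 5 each recur among the 7. The count can therefore not be set against 5%. The Igf2 ratio of day 21 replicate 2 was 2.35 and the nearest animal was at 0.0056, and its Igf2 level in sprouting neurons was 10.43 with the nearest at 7.89. The Igf2r level in sprouting neurons of day 21 replicate 1 was 11.26 with the nearest at 10.77. The Igfbp2 level of day 7 replicate 5 was 7.00 in sprouting neurons (nearest 6.44) and 6.99 in non-sprouting neurons (nearest 6.44). The Irs1 level in sprouting neurons was 6.71 in day 7 replicate 2 (nearest 6.36) and 6.11 in day 21 replicate 5 (nearest 6.26), from a dim probe.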

How the results depend on the processing

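The count of members past an adjusted p of 0.05 was 0 in all 6 comparisons. It stayed at 0 in each of the 153 alternative counts that were run. These included leaving out each animal in turn (lowest 0, highest 0) and a threshold of 0.1. All but 1 of the settings let at most 1 gene of the whole array pass, so a member count of 0 there could hardly differ and shows little. The exception entered every array singly, linked to the other array of its animal. It passed 389 of 33089 genes at day 7, 500 over both days and 4 for day 21 minus day 7, with 0 members among them. With the replicate number as a block the member count was 0 in each of the 3 comparisons between days. The number names different animals at day 21 and day 7, and same-numbered animals' deviations from their day's mean correlated between -0.196 and 0.0017 over genes, so the number was not taken as a pairing. Of 1458 alternative values of single members, 21 moved by more than the spread between animals. Most came from the scanner's processed signals, for the dim probes of Igfbp2, Igfbp5, Irs1 and Igf1r: the day 21 ratio of Irs1 was -0.80 there. Without scaling between arrays the day 21 over day 7 difference in sprouting neurons was -0.37 for Igf2r, -0.28 for Igf1 and 0.18 for Igfbp4. The cause was not tested. Under the stricter filter on dim probes Igfbp2 and Igfbp5 gave no value. Without day 21 replicate 4 the day 21 ratios of the members lay between -0.17 (Igfbp4) and 0.37 (Igf2). For Igf2 the day 21 ratio ran from -0.22 to 0.54 over the alternatives, the lowest without replicate 2. The smallest adjusted p of any member under any alternative was 0.23 (Igfbp6, sprouting day 21 over day 7).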

Other observations

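The spread of Igf2, Igf1, Igfbp3 and Igfbp4 between animals did not hang on one way of normalizing. In the deposited ratios the Igf2 value had the sign reported here in 10 of 10 animals and ran from -0.87 to 2.35. With the scanner's processed signals it ran from -1.41 to 2.80, again with the same sign in 10 of 10, and with median centring in place of loess from -0.90 to 2.18. Igf1 ran from -0.51 to 0.61 and Igfbp4 from -0.997 to 0.43 in the deposited ratios, with the same sign in 10 and 9 of 10 animals. The dim Igfbp2 had the same sign in 6 of 10 animals with the processed signals, where it ran from -1.26 to 1.12.

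Among the 45 pairs of members, 6 had opposite signs in at least 8 of 10 animals and 4 had one sign in at least 8. The share among pairs of all genes was not computed. Most of these pairs hold Igf1r, Igfbp2 or Igfbp5, whose pair of arrays had one sign in only 3, 0 and 4 of 10 animals. Igf1 and Igfbp4, a ligand and a protein that binds it, had opposite signs in 8 of 10 animals, and in all 5 of day 7. That tally used the brighter Igfbp4 probe, and the second Igfbp4 probe was above 0 in 8 of 10 animals. Igf2 and Irs1 had one sign in 9 of 10. Those 9 include day 21 replicate 4, where the Igf2 ratio was 0.0056 from arrays at -0.12 and 0.13. These pairs were picked after their values were seen, and no test was made of them.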
